A study of Homo sapiens with 10 samples.

Results

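The chromosome 19 microRNA cluster (C19MC) was followed in HuH-7 cells, a line derived from a human liver carcinoma. Its members were the array probes whose name holds miR-498, miR-512, miR-515 to miR-527, miR-1283 or miR-1323 with any letter or arm, which gave 52 of 2565 miRNA probes carrying 62 miRNA names. Cells were kept for 96 h with 1 µM lenvatinib, an inhibitor of VEGF and FGF receptor tyrosine kinases, or without it, and the labels give 5 single-colour arrays per group, numbered 1 to 5. All came from the same line and differ by label only in the drug. Separate cultures are not stated for them, so p-values measure only the spread between arrays, which may be technical. The labels describe cultured cells, but the extraction protocol names serum.

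C19MC is an imprinted, primate-specific cluster of miRNA hairpins, transcribed from the paternal allele, and its miRNAs are known as products of the placental trophoblast and of embryonic stem cells. Outside those tissues the cluster is largely silent, and its reactivation has been described in some tumours, hepatocellular carcinoma among them. The hairpins arose by duplication, so their mature miRNAs resemble each other, and several 3p arms carry the AAGUGC core shared with the miR-302, miR-372 and miR-17 families, which promote cell cycle progression.

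The mature sequences came from RefSeq (GRCh38.p14), where 56 of the 62 names were found, covering 47 of the 52 probes. The matched hairpins, 41 genes on the plus strand, span chr19:53666679-53762430, a stretch of 95.8 kb between the protein-coding genes DPRX and NLRP12, and the miR-371 to miR-373 cluster starts 25.2 kb downstream. The sequences below are those of the probes described array by array (miR-522-3p, with no match, is not shown), ordered by shared seed, with miR-520g-3p for comparison with miR-520h and 3 relatives from other loci; capitals mark the seed, bases 2 to 8 from the 5′ end.
miR-517a-3p: aUCGUGCAucccuuuagagugu
miR-517b-3p: aUCGUGCAucccuuuagagugu
miR-517c-3p: aUCGUGCAuccuuuuagagugu
miR-520a-3p: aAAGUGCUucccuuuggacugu
miR-520d-3p: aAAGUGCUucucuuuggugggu
miR-302a-3p: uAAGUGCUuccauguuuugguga
miR-372-3p: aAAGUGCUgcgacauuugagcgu
miR-519d-3p: cAAAGUGCcucccuuuagagug
miR-17-5p: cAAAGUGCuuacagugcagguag
miR-512-3p: aAGUGCUGucauagcugagguc
miR-519e-3p: aAGUGCCUccuuuuagaguguu
miR-518b: cAAAGCGCuccccuuuagaggu
miR-520h: aCAAAGUGcuucccuuuagagu
miR-520g-3p: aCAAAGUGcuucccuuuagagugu
miR-520g-5p: uCUAGAGGaagcacuuucuguuu
miR-518c-5p: uCUCUGGAgggaagcacuuucug
MiR-520a-3p and miR-520d-3p have the seed of miR-302a-3p and miR-372-3p, and miR-519d-3p has that of miR-17-5p. MiR-520h equals the first 22 bases of miR-520g-3p, which has 24. The core AAGUGC lies in 13 of the 47 matched C19MC probes and in 24 of 2217 other matched probes, searched on the mature strand. The stretch CUUUAGAG lies in 8 of the 47 and in 0 of the 2217 others.

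Signal from the cluster was close to the background on all 10 arrays. A spot counted as detected where its raw brightness exceeded the mean of the array's blank spots by 2 SD, the rule that matches the filled cells of the deposited files. Of the 52 probes, 2 were detected on all 10 arrays, the probe shared by miR-517a-3p and miR-517b-3p and the probe for miR-518b, which is 3.85% against 33.5% of all miRNA probes. Another 12 were detected on 5 to 9 arrays (23.1% against 19% of all) and 29 on 1 to 4 (55.8% against 22.4%). The remaining 9 were detected on none, which is 17.3% against 25.1% of all miRNA probes. Those 9 were miR-1283, miR-518f-5p, miR-519b-3p, miR-519c-3p, miR-520a-5p, miR-520f-3p, miR-525-3p, miR-526b-5p and the probe shared by miR-519c-5p and 5 further 5p arms of identical sequence. Of the 180 detections among the 520 C19MC spots, 176 lay below the median of the detected miRNA signals of their array. The median raw brightness of the 52 spots was 1.03 times the mean of the blanks on control arrays and 1.05 times on lenvatinib arrays (means of 5 arrays each), against 1.07 and 1.08 times for all miRNA probes.

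**Figure D1:**
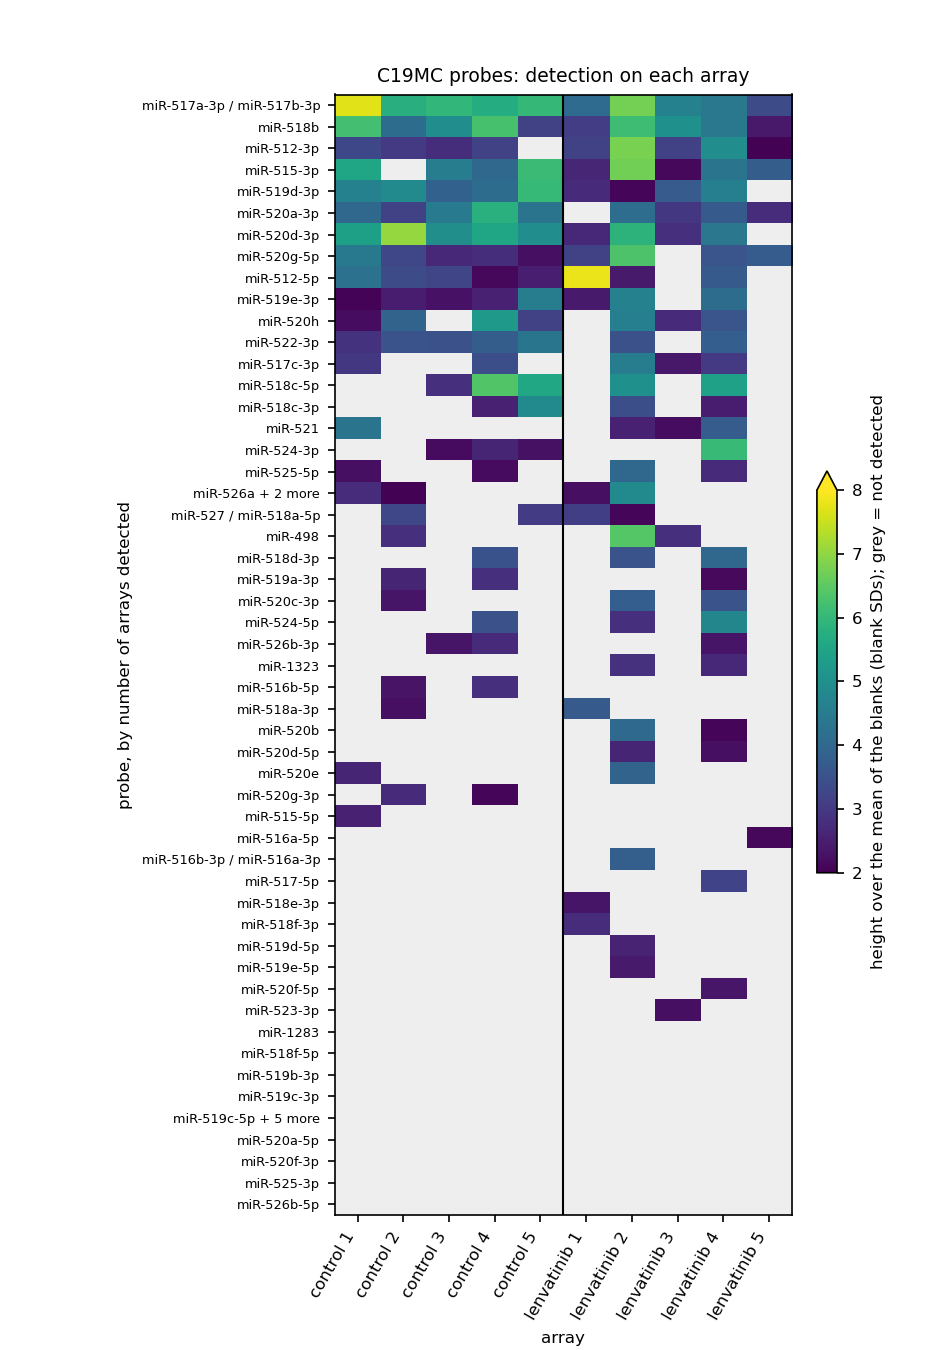
Detection of the 52 C19MC probes (rows, by number of arrays detected) on the 5 control and 5 lenvatinib arrays (columns). Colour gives the height over the mean of the blank spots in SDs of those spots and grey marks spots not detected: 2 rows are filled on all 10 arrays, 9 on none, and lenvatinib arrays 2 and 4 hold 30 and 28 filled cells.

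Arrays of the same group differed in how much of the cluster they detected. Control arrays 1 to 5 detected 18, 19, 14, 23 and 15 C19MC probes, 17.8 ± 3.56 (SD, n = 5). Lenvatinib arrays detected 14, 30, 12, 28 and 7, 18.2 ± 10.2 (SD, n = 5). The groups overlapped throughout, and the lenvatinib arrays spread wider, with arrays 2 and 4 far above the other 3, which averaged 11. These 2 arrays also detected the most miRNA probes of their group, 58.4% and 54.3% against 46.7% to 50.7% on the other 3. Among control arrays, array 4 was highest both for the cluster and for all probes, at 60.3% of the latter. Of the C19MC probes, 12 were detected on lenvatinib arrays only (23.1% against 6.28% of all miRNA probes) and 3 on control arrays only (5.77% against 6.78%). None of these probes was detected on more than 2 arrays. Of those on lenvatinib arrays only, miR-1323, miR-520b and miR-520d-5p were detected on arrays 2 and 4, and the rest on 1 array each. Of the 52 probes, 10 were detected on only 1 array each, not all on the same one (19.2% against 9.16%). More lenvatinib than control arrays detected 20 of the 52 (14.4% of all miRNA probes did so), and more control than lenvatinib arrays detected 15 (19.6% of all). No member was detected on all 5 arrays of 1 group and none of the other, a pattern of 0.117% of all miRNA probes.

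Blank, No Probe and negative control spots were set beside the detection limit. The blank spots themselves set that limit, so their share above it is no independent check. What the No Probe spots carry is not stated in the labels. Blank spots exceeded the limit on 7.06% ± 1.57 of 320 spots on control arrays and on 8.31% ± 0.873 on lenvatinib arrays (SD, n = 5 each). The 85 spots that the files name No Probe exceeded it more often and less evenly, at 27.1% ± 12.7 and 27.8% ± 19.7 (SD, n = 5 each), with a range of 9.41% to 60% over the 10 arrays. The 16 spots named Negative Control 1 exceeded it at 5% ± 8.15 and 7.5% ± 6.85 (SD, n = 5 each). C19MC probes did so at 34.2% ± 6.85 and 35% ± 19.6 (SD, n = 5 each), and all miRNA probes at 53.0% ± 4.87 and 51.5% ± 4.83. The C19MC share lay below that of No Probe spots on control arrays 1 and 2 and on lenvatinib arrays 1 and 5, and above it on the other 6 arrays.

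**Figure D2:**
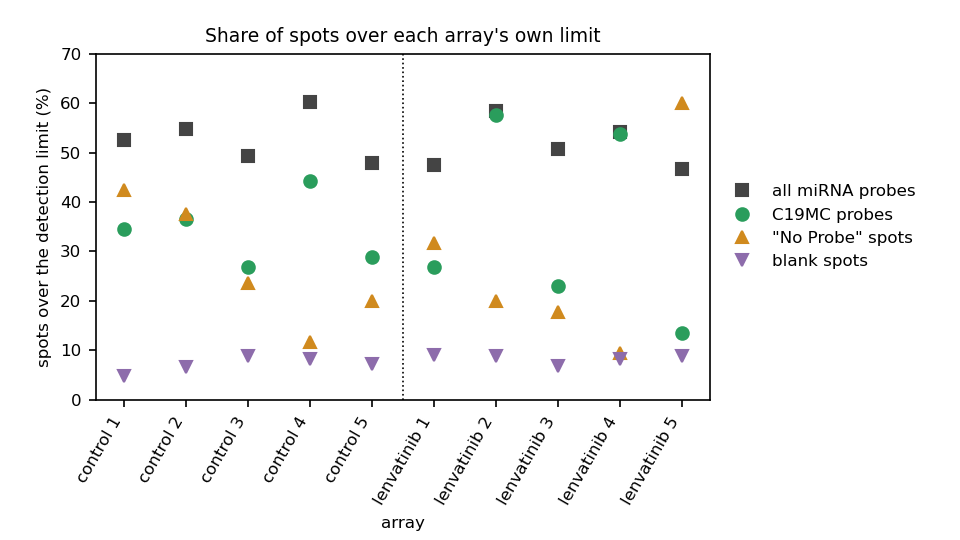
Percentage of spots above each array's own limit (blank mean plus 2 SD), for all miRNA probes, C19MC probes, No Probe spots and blank spots, with 1 symbol per array. C19MC probes lie between 13.5% and 57.7%, under the share of all miRNA probes on every array, and under that of No Probe spots on 4 of the 10.

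Detection was uneven between the arms of the hairpins. The 28 probes for 3p arms were detected on 44.3% of their array spots and the 21 probes for 5p arms on 23.3%, while among other miRNA probes the 2 arms stood at 55.1% and 58.4%. The gap was there on control arrays (45.7% against 21.9%) and on lenvatinib arrays (42.9% against 24.8%). Of the 14 probes detected on at least 5 arrays, 11 were 3p arms, and the 5p exceptions were miR-512-5p, miR-518c-5p and miR-520g-5p. Within hairpins with a probe for each arm, the 3p probe was detected on more arrays in 13 of 24 distinct pairs and the 5p probe in 8. The 3p and 5p probes were detected on 9 and 0 arrays for miR-520a, on 9 and 1 for miR-515, on 9 and 1 for miR-519d, and on 9 and 2 for miR-520d. MiR-520g ran the other way, with its 5p arm on 9 arrays and its 3p arm on 2. These are descriptions without a test, since arms of duplicated hairpins share sequence.

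**Figure D3:**
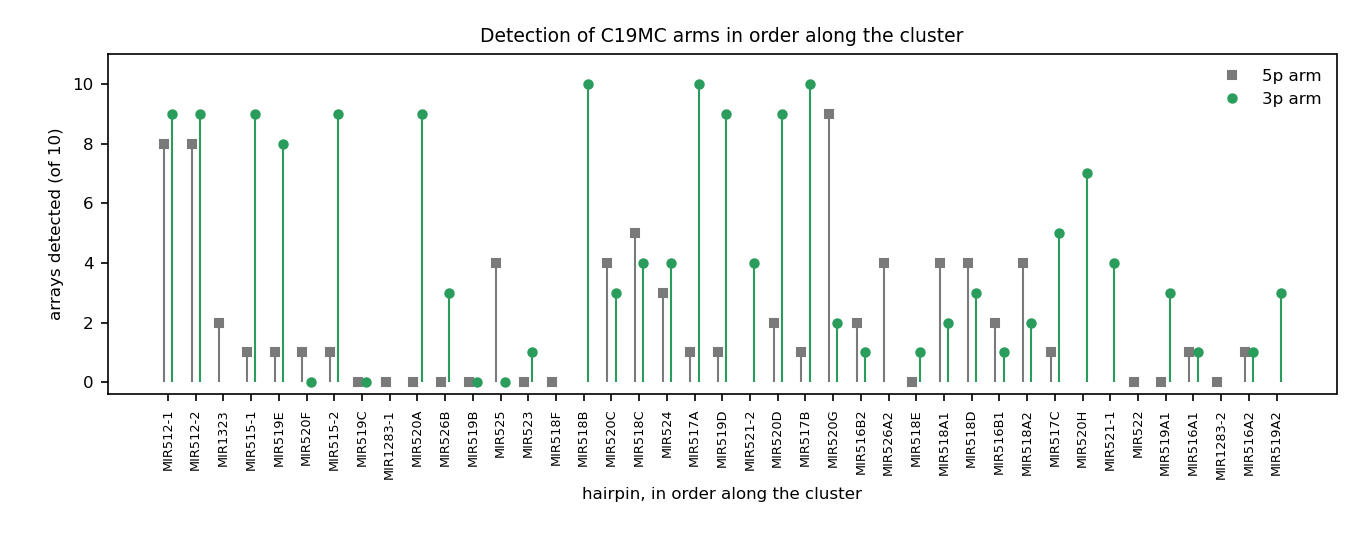
Number of arrays (of 10) that detected the 5p arm (squares) and the 3p arm (circles) of each matched C19MC hairpin, in order along the cluster; a probe that reads several hairpins is drawn at each. Among the arms drawn, the 3p arms detected on at least 7 arrays run from MIR512-1 at one end to MIR520H. MIR519C and MIR519B, detected on no array by either arm, lie between. MiR-522-3p, detected on 7 arrays, had no matched sequence and is not drawn, although its hairpin MIR522 lies beyond MIR520H.

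Detection was also set beside base composition. The G and C content of the 47 matched probes had a median of 47.6%, against 52.2% for the other matched probes, and on these arrays GC-rich probes were detected more often. Of other probes with 50% to 60% GC, 60.1% were detected on at least 5 arrays, against 6 of 22 C19MC probes (27.3%) in the same range. At 40% to 50% GC the shares were 37.9% and 30%, the latter 6 of 20, and under 40% GC they were 16.1% and 20%, the latter 1 of 5. The 5p arms, detected less often, had the higher median GC content, 50% against 45.5% for 3p arms.

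Some near-identical members differed in the number of arrays that detected them and others did not. Among those that did not, miR-519a-3p and miR-520c-3p were each detected on 3 arrays, 2 of them the same, and miR-519b-3p and miR-519c-3p on none. MiR-517c-3p differs from miR-517a-3p and miR-517b-3p by 1 base, C12U counted from the 5′ end, and was detected on 5 arrays where the other probe was detected on all 10. MiR-520h was detected on 7 arrays and miR-520g-3p, which contains its whole sequence, on 2, both among those 7. Relative to the sequence of miR-519c-5p and its 5 twins, that of miR-526a, miR-520c-5p and miR-518d-5p carries G15A, and the latter probe was detected on 4 arrays against 0. MiR-519e-3p was detected on 8 arrays, while miR-520f-3p, which differs by C7U and U19G, was detected on none. Cross-hybridisation between such pairs was not tested. By seed, among matched probes only, the 3 with the seed AAGUGCU (miR-520a-3p, miR-520c-3p, miR-520d-3p) were detected on 21 of 30 spots. The 3 with AAGUGCA (miR-519a-3p, miR-519b-3p, miR-519c-3p) were detected on 3 of 30. Probes without a matched sequence were not assigned a seed, among them miR-520b and miR-520e, each detected on 2 arrays.

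The probe of miR-517a-3p and miR-517b-3p, abundant placental miRNAs carried in trophoblast exosomes, gave background-subtracted intensities of 6.34, 6.16, 6.05, 4.78 and 5.9 on control arrays 1 to 5 and 11.5, 12.8, 11.3, 10.6 and 11.1 on lenvatinib arrays 1 to 5. The groups did not overlap on this unscaled intensity, and the lenvatinib arrays were higher. Blank spots were brighter there too, at 62.2 to 85.5 against 30.9 to 34.6. So were the spots named Spike Control 1, with blank-subtracted medians of 22010 to 35901 against 11068 to 12352. Overall array brightness and the drug cannot be told apart on that unscaled intensity. Raw brightness of this probe was 1.15 to 1.19 times the blanks on control and 1.13 to 1.21 times on lenvatinib arrays. After quantile normalization between arrays it stood at 3.18 ± 0.27 on control and 2.88 ± 0.19 on lenvatinib arrays (log2 intensity, SD, n = 5 each), and the groups overlapped. The difference was -0.30 ± 0.16 (log2, SE, limma adjusted p = 0.223). Scaled to the spike controls instead, it was -0.29 (log2, limma adjusted p = 0.227). The authors' deposited table of the series, which holds 2 C19MC probes among its 803, lists this one at 8.2 to 13.6 on control and 8 to 11.1 on lenvatinib arrays.

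MiR-518b, measured as a placental miRNA in maternal plasma, gave background-subtracted intensities of 5.08, 4.41, 5, 5.24 and 3.11 on control arrays 1 to 5 and 8.63, 11.6, 12.3, 10.5 and 7.86 on lenvatinib arrays 1 to 5. The lenvatinib values were again the higher ones before scaling, and the groups overlapped after it. The difference was -0.12 ± 0.18 (log2, SE, limma adjusted p = 0.718). In the authors' deposited table it ranged from 7.2 to 10.5 on control and from 6.2 to 10.4 on lenvatinib arrays.

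**Figure D4:**
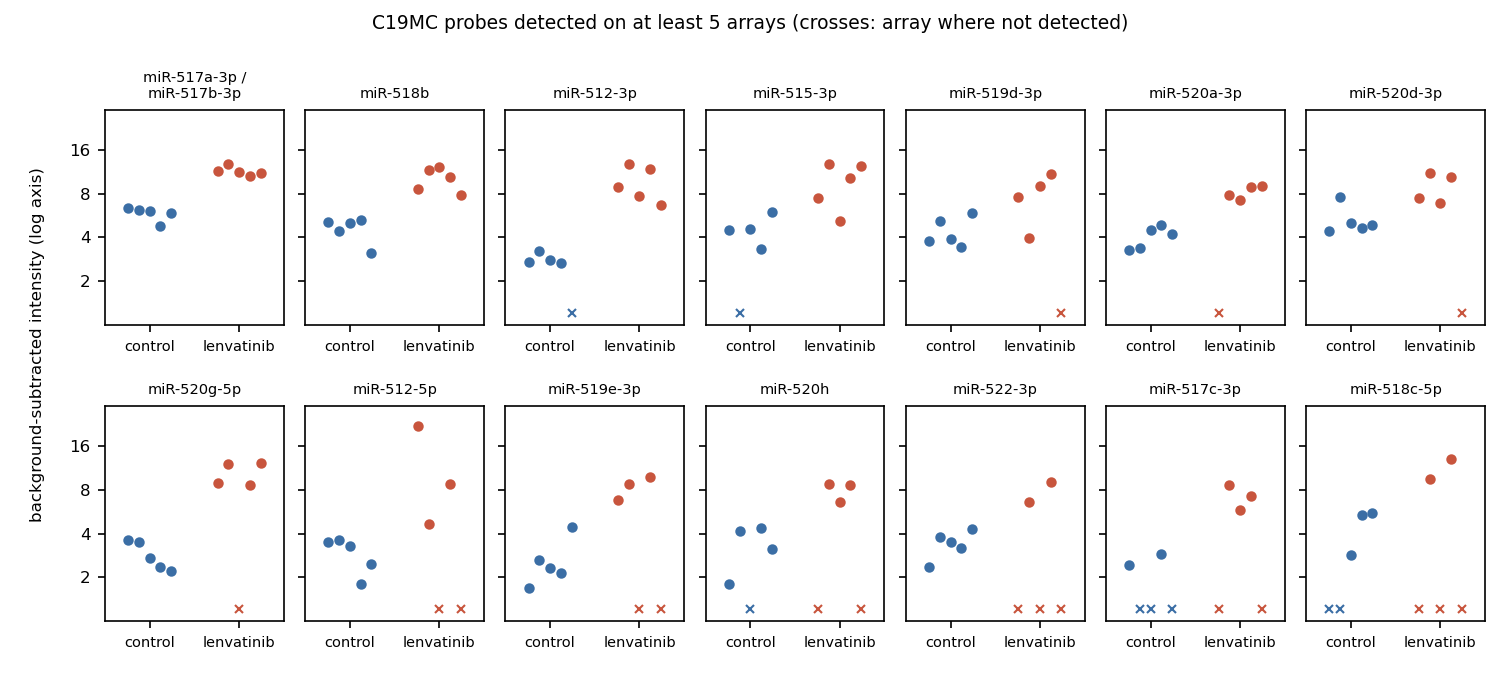
Background-subtracted intensity (log axis) of the 14 C19MC probes detected on at least 5 arrays, 1 point per array; crosses at the foot mark arrays where the probe was not detected. Detected values lie between 1.7 and 7.55 on control arrays and between 3.95 and 21.9 on lenvatinib arrays, whose blank spots were also brighter.

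None of the 14 members that entered the fit changed with lenvatinib past an adjusted p of 0.05 (limma, 5 against 5 arrays, adjusted over 1346 probes), where 289 of all 1346 tested probes did (21.5%). By direction, 0 of 14 rose (12.1% of all did) and 0 fell (9.36%). At an unadjusted p under 0.05 there were 4 of 14 (34.0% of all), and the exact permutation test adjusted over all probes also called 0 (19.9% of all). Lenvatinib and control values overlapped for all 14 after normalization, while they did not for 20.0% of all tested probes. Fitted changes ran from -0.66 to 0.62 on the log2 scale, 5 above and 9 below 0, with a median of -0.12 against -0.03 over all tested probes. Their standard errors were 0.16 to 0.41, and the interquartile range over all tested probes was 0.16 to 0.26. The calls depended on the scaling. At the 75th percentile 4 of the 14 fell (17.7% of all tested probes did), with limma adjusted p from 0.0151 to 0.0414. They were the probe of miR-517a-3p and miR-517b-3p at -0.54, miR-519d-3p at -0.79, miR-520a-3p at -0.59 and miR-520d-3p at -0.84. These 4 were below 0 after quantile normalization too. With no scaling all 14 rose (95.6% of all). Without background correction the 14 changes ran only from -0.08 to 0.06, and 0 passed, where 310 of all 1346 tested probes did. Detection chose these 14, so they do not stand for the rest of the cluster.

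MiR-512-3p, from the pair of hairpins at the start of the cluster, had the smallest p of the 14. It gave background-subtracted intensities of 2.7, 3.24, 2.82 and 2.65 on control arrays 1 to 4 and 8.93, 12.9, 7.7, 11.8 and 6.65 on lenvatinib arrays 1 to 5. After normalization 4 of the 5 lenvatinib values lay above all control values, and lenvatinib array 5 lay among them. The difference was 0.62 ± 0.21 (log2, SE, limma adjusted p = 0.0613), with a 95% interval of 0.15 to 1.09. Without lenvatinib replicate 5, the array with the brightest blanks, it was 0.77 (limma adjusted p = 0.0120), and it was the 1 member called there (13.9% of all tested probes rose). Without lenvatinib replicates 2 and 4 it was 0.34 (limma adjusted p = 0.268), and with undetected values left missing it was also 0.34 (adjusted p = 0.497). MiR-512-5p, the other arm, reported to repress the survival factor MCL1, ranged from 1.79 to 3.64 on the 5 control arrays and was detected on 3 lenvatinib arrays, at 4.63 to 21.9. Its difference was 0.04 ± 0.41 (log2, SE, limma adjusted p = 0.965), with the widest error of the 14, and without lenvatinib replicate 1 it was -0.40 (limma adjusted p = 0.285).

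Among members with the seeds of miR-302 and miR-17, miR-520d-3p gave background-subtracted intensities of 4.44, 7.55, 5.03, 4.64 and 4.86 on control arrays 1 to 5 and 7.46, 11.2, 6.91 and 10.5 on lenvatinib arrays 1 to 4. Only lenvatinib array 5 missed it. The normalized groups overlapped, with a difference of -0.66 ± 0.24 (log2, SE, limma adjusted p = 0.0696) and a 95% interval of -1.18 to -0.14. Without lenvatinib replicate 2 it alone of the members passed, at -0.78 (limma adjusted p = 0.0376), where 8.94% of all tested probes fell. MiR-520a-3p, with the same seed, gave 3.29, 3.37, 4.54, 4.88 and 4.25 on control arrays 1 to 5 and 7.84, 7.24, 8.85 and 9.03 on lenvatinib arrays 2, 3, 4 and 5. Its normalized difference was -0.42 ± 0.19 (log2, SE, limma adjusted p = 0.147), and lenvatinib array 1, at the floor given to undetected probes, lay apart from the rest of its group. MiR-519d-3p, which carries the miR-17 seed and has been reported to repress the cell cycle inhibitor CDKN1A, gave 3.8, 5.22, 3.92, 3.46 and 5.92 on control arrays 1 to 5 and 7.61, 3.95, 9.07 and 11 on lenvatinib arrays 1 to 4. Its normalized groups overlapped, with a difference of -0.52 ± 0.27 (log2, SE, limma adjusted p = 0.213).

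MiR-522-3p gave background-subtracted intensities of 2.37, 3.78, 3.52, 3.16 and 4.27 on control arrays 1 to 5 and 6.61 and 9.1 on lenvatinib arrays 2 and 4. The 2 lenvatinib arrays that detected it are those that detected most of the cluster. Its normalized difference was -0.49 ± 0.22 (log2, SE, limma adjusted p = 0.132), which rests on the floor given to the 3 arrays that missed it: with undetected values left missing it was 0.05 (limma adjusted p = 0.934), and with them at 0.5 times the lowest detected value it was -1.09 (adjusted p = 0.0845). Without lenvatinib replicate 4 it was -0.64 (limma adjusted p = 0.0448), the 1 member called there (8.40% of all tested probes fell). Without both arrays that detected it, every lenvatinib value left was that floor, so no fold is given. MiR-520d-3p without those 2 arrays was -0.93 (limma adjusted p = 0.0237), with lenvatinib array 5 at the floor, and 9.21% of all tested probes fell there.

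Of the other members, miR-520g-5p gave background-subtracted intensities of 3.63, 3.5, 2.71, 2.34 and 2.2 on control arrays 1 to 5 and 8.93, 12, 8.58 and 12.3 on lenvatinib arrays 1, 2, 4 and 5. Its normalized difference was 0.32 ± 0.25 (log2, SE, limma adjusted p = 0.422). MiR-519e-3p gave 1.7, 2.62, 2.32, 2.14 and 4.45 on control arrays 1 to 5 and 6.83, 8.79 and 9.88 on lenvatinib arrays 1, 2 and 4. It overlapped between the groups after normalization, with a difference of 0.09 ± 0.28 (log2, SE, limma adjusted p = 0.861). MiR-520h gave 1.79, 4.17, 4.4 and 3.11 on control arrays 1, 2, 4 and 5 and 8.71, 6.61 and 8.58 on lenvatinib arrays 2, 3 and 4. It overlapped as well, with a difference of -0.13 ± 0.25 (log2, SE, limma adjusted p = 0.765). MiR-517c-3p, detected on as few arrays as a tested probe could be, gave 2.43 and 2.88 on control arrays 1 and 4 and 8.6, 5.82 and 7.25 on lenvatinib arrays 2, 3 and 4. Its difference was 0.19 ± 0.19 (log2, SE, limma adjusted p = 0.522). MiR-518c-5p, a 5p arm, gave 2.85, 5.33 and 5.51 on control arrays 3, 4 and 5 and 9.52 and 13 on lenvatinib arrays 2 and 4. Its difference was -0.19 ± 0.38 (log2, SE, limma adjusted p = 0.782). MiR-515-3p ranged from 3.35 to 6 on 4 control arrays and from 5.17 to 12.8 on 5 lenvatinib arrays, with a difference of -0.01 ± 0.33 (log2, SE, limma adjusted p = 0.985).

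**Figure D5:**
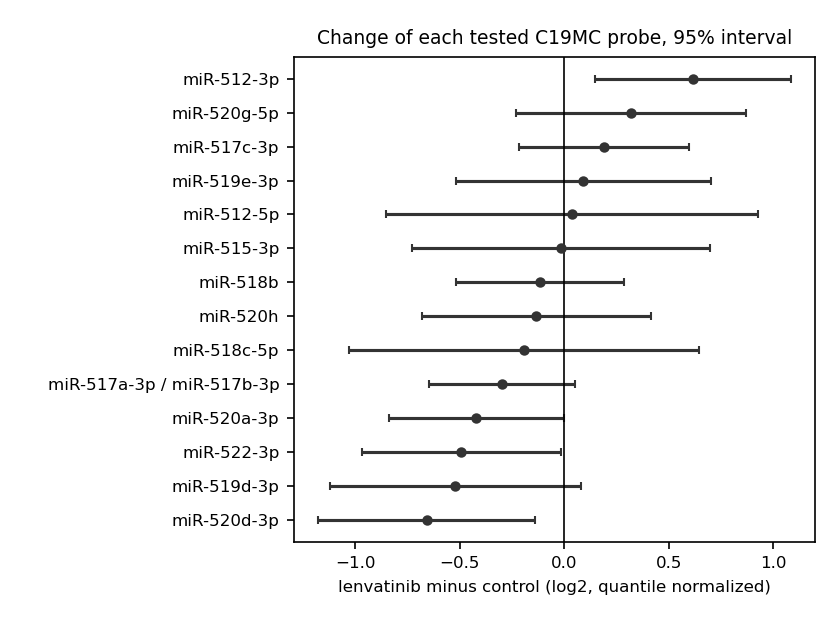
Lenvatinib minus control (log2, after quantile normalization) of the 14 tested C19MC probes, points with 95% intervals from limma. The estimates run from -0.66 (miR-520d-3p) to 0.62 (miR-512-3p), and none passed an adjusted p of 0.05 under this scaling.

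The 29 probes detected on 1 to 4 arrays were not tested for a change. Those named here were chosen after their values were seen. Detected on 4 arrays were miR-518c-3p, miR-521, miR-524-3p, miR-525-5p and the joint probes of miR-526a and of miR-527. MiR-498, reported to repress telomerase reverse transcriptase, was detected on control array 2 and on lenvatinib arrays 2 and 3. MiR-520c-3p, reported to promote invasion of breast cancer cells, was detected on control array 2 and lenvatinib arrays 2 and 4. MiR-516b-5p was detected on control arrays 2 and 4 and no lenvatinib array. MiR-1323, miR-520b and miR-520d-5p were detected on lenvatinib arrays 2 and 4 and no control array.

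The relatives of C19MC split by locus. The neighbouring miR-371 to miR-373 cluster and the miR-302 cluster, both marks of pluripotent cells, were as dim: 0 of 8 and 0 of 5 were detected on all 10 arrays, and miR-372-3p was detected on none. The highest background-subtracted intensity among them was 15.7, of miR-371a-5p on a lenvatinib array. By contrast miR-17-5p, which has the seed of miR-519d-3p, stood at 2433 to 2997 on control and 3153 to 4979 on lenvatinib arrays. Of these relatives and the others with the miR-17 seed, 19 in all, 12 entered the fit. Of those 12, 0 rose (12.1% of all tested probes did) and 1 fell (9.36% of all did). The 1 that fell was miR-106b-5p, at -0.74 ± 0.14 (log2, SE, limma adjusted p = 0.00234). All 4 hepatocyte miRNAs looked for were detected on all 10 arrays, with miR-122-5p at 2815 to 3424 on control and 7246 to 9778 on lenvatinib arrays (background-subtracted intensity). After quantile normalization miR-122-5p, miR-192-5p and miR-194-5p differed by 0.35, 0.45 and 0.59 (log2, limma adjusted p = 0.0314, 0.0216 and 0.00692) and miR-885-5p by -1.22 (adjusted p = 0.000121). Of 5 blood cell miRNAs, looked at because the extraction protocol names serum, miR-486-5p was detected on all 10 arrays, at 3.75 to 19.5, miR-142-3p on 5 control and 4 lenvatinib arrays, at up to 21.3, and miR-451a on 5 and 3. MiR-144-3p was detected on 2 lenvatinib arrays and miR-223-3p on 2 control arrays.

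For the 13 tested probes with a sequence, the nearest miRNA outside the cluster differed by 5 to 8 edits. For miR-520g-5p alone among them, that nearest miRNA, miR-128-3p at 8 edits, was detected on all 10 arrays. The part of cross-hybridisation in these dim signals was not tested.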

How the data were processed

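RNA of HuH-7 cells was labelled with Cy5 and read on single-colour 3D-Gene miRNA arrays, per the labels' protocols. The deposited files hold linear intensity, per the file headers, in 3 forms: raw, background-subtracted and globally normalized. In the deposited files, subtracted intensity equalled the raw value minus the mean of the blanks trimmed by 5% at each end, with cells left blank at or under that mean plus 2 SD (0 mismatches among unmarked miRNA spots). Global normalization puts each array's median at 25. The authors' series table holds linear intensity of 803 probes. The scanner's settings were not used here.

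Spots marked NG were left out (2 on control and 11 on lenvatinib arrays, 0 of C19MC). Undetected probes took the lowest detected value of their array before log2 and quantile normalization. The 1346 probes detected on at least 5 arrays were tested with limma 3.58.1 in R 4.3.3 (lmFit and eBayes, two-sided, Benjamini-Hochberg over all 1346, threshold 0.05), a step tested on simulated data. The number of arrays limits the precision. Levels of different probes were not ranked.

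Deviations of same-numbered arrays from their group means correlated at 0.114 to 0.140 for numbers 1 to 4 and at 0.000846 for number 5. Not every pair exceeded 0.1 and no label gives a pairing, so the numbers were not taken as pairs. The members, lists, tests and naming rule were chosen with earlier results of these data known. That rule named all tested members and gave array values for at most 12 (those detected on all 10 arrays, then by limma p), beside fixed lists of relatives and markers. Alternatives changed the scaling, background, filter, floor, NG spots, block, test and arrays. Leaving out lenvatinib replicates 2 and 4 together was chosen after seeing the data.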

Additional observations from a re-analysis of the deposited data

Results flagged for a closer look

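In 30 groups of 5 arrays (the C19MC detection counts and the normalized values of 14 probes, each in both groups), 3 held an array whose gap to the nearest of the others, over the range of the group, exceeded Dixon's critical value of 0.71. Chance flags about 1 in 20 groups. The probe of miR-517a-3p and miR-517b-3p was low on control array 4, at 2.71 (log2, quantile normalized) against 3.22 to 3.41 on the others. MiR-519e-3p was high on control array 5, at 2.91 against 1.68 to 1.98. MiR-520a-3p was low on lenvatinib array 1, at 1.63 against 2.32 to 2.43, and this value is the floor given to an undetected probe.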

How the results depend on the processing

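Over the whole array 289 calls became 1289 with no scaling and 182 with undetected probes left missing, and 227 to 337 with 1 array left out. The 0 calls among C19MC probes became 14, all higher, with no scaling (95.6% of all probes were higher then), 4, all lower, after scaling to the 75th percentile (17.7% of all were lower), 1 higher with probes detected on all 5 arrays of a group (16.4% of all), 1 higher with the replicate block (10.5%), 2 lower with lenvatinib replicates 2 and 4 left out (9.21%), 1 of them miR-522-3p at the floor on every lenvatinib array left, and 0 to 1 with 1 array left out. The cause was not tested. The median over all 1346 changes was 1.30 with no scaling and -0.21 with the 75th percentile. With the replicate block miR-512-3p passed (0.62, adjusted p = 0.0447), as without lenvatinib replicate 5, and the whole array had 257 calls. It also passed among probes detected on all 5 arrays of a group, a filter it enters only through lenvatinib. No label gives a pairing. Numbers 1, 2 and 3 correlated best with their own number, and 4 and 5 each with the other.

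With no scaling 9 changes turned to calls in the other direction: 0.97 for the probe of miR-517a-3p and miR-517b-3p, 1.23 for miR-515-3p, 1.16 for miR-518b, 1.25 for miR-518c-5p, 0.73 for miR-519d-3p, 0.92 for miR-520a-3p, 0.68 for miR-520d-3p, 1.29 for miR-520h and 0.93 for miR-522-3p. Of all C19MC changes recomputed under alternatives, 323 kept direction and call, 19 changed sign without a call and 16 newly passed. Alternatives that altered only the filter, the block or the test kept the change itself by construction, so only the call could differ there.

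At a limit of 3 SD, control arrays detected 10.8 C19MC probes and lenvatinib arrays 11 (3 to 21), with 1 on all arrays and 23 on none. With 1 raw limit for all arrays, 0 were detected per control and 1.4 ± 3.13 per lenvatinib array (SD, n = 5). That mean came from 7 probes on 1 lenvatinib array and 0 on the others, and lenvatinib arrays had the brighter blank spots. Under this limit 0 were detected on all arrays, 0 on at least 5 and 45 on none. Leaving out lenvatinib replicates 2 and 4 left 17 on none, and leaving out 1 array left 2 to 4 on all. The planned order of probes by level was not run. Dim signal over blanks limits every C19MC value.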
